A study of Homo sapiens with 15 samples.

Results

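The G1 cyclins, their kinases and the CIP/KIP inhibitors were followed as 10 genes: CCND1, CCND2, CCND3, CDK4, CDK6, CCNE1, CCNE2, CDKN1A, CDKN1B and CDKN1C, out of 19974 protein-coding genes. Peaks of all 15 libraries that overlapped by at least 1 bp were merged into 222814 regions, and every region inside one of these genes or within 50 kb of either end was taken, which gave 197 regions. Among them, 66 lay inside a gene of the set and 131 outside, and for 109 the nearest protein-coding gene end belonged to a gene of the set. The farthest region inside the limit lay 43726 to 49496 bp from its gene and was called in 1 to 15 libraries (median 2 over the 10 genes), and the nearest region outside it lay at 50466 to 63846 bp and was called in 1 to 15 (median 12).

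The assay was ATAC-seq, in which a transposase cuts and tags open chromatin. The cells were HPAF-II, an established line from a human adenocarcinoma of the pancreas. Cells received the solvent DMSO or 1 µM Lgk974, an inhibitor of the enzyme porcupine, which WNT ligands need for their secretion, for 24 h or 48 h. At 24 h there were 4 libraries of each treatment, and at 48 h 4 of DMSO and 3 of Lgk974, all from the same line with no stated genetic change. The labels do not say whether replicates were separate cultures, and the p-values therefore reflect the spread among these samples only, which may be technical.

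Cyclins D1, D2 and D3 bind the kinases CDK4 and CDK6 in G1 and start the phosphorylation of the retinoblastoma protein, which releases E2F factors. E2F factors raise cyclins E1 and E2, which act with CDK2 to complete that step and open S phase. The inhibitors p21 (CDKN1A), p27 (CDKN1B) and p57 (CDKN1C) bind cyclin-CDK complexes and hold cells in G1, and CCND1 is a classical target of WNT signalling through beta-catenin.

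Each library came as a list of peaks, from 53610 to 127886 peaks long, so each region counts as called or as not called in each library, and the read depth behind a call is unknown. A region without a call may be open below the threshold of its list. DMSO 24 h replicate 3, with the longest list, and Lgk974 24 h replicate 3 and Lgk974 48 h replicate 3, with the 2 shortest, stood apart from the rest, and the treatment and time results and the shares of regions called in every library are given with and without them. The ends of 10 of 10 epithelial marker genes had a peak within 1 kb in all 15 libraries. Among markers of other cells, 3 of 4 endothelial genes (PECAM1, VWF and TEK) and 3 of 5 fibroblast genes (DCN, LUM and THY1) had no call in any library. The fibroblast genes COL1A2 and PDGFRB were called in 11 and 10. Of 6 immune genes, 3 were called in more than 12 libraries, among them CD3E and CD14 in all 15. The immune gene MS4A1 had no call in any library. Whether those peaks belong to the marker or to a neighbour was not tested.

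Around the cell cycle genes, regions called in every library and regions called in 1 library were equally many. Of the 197 regions, 54 (27.4%) were called in all 15 libraries and 54 in 1 library, 8 were called in 2, 26 in 13 or 14, and 55 in 3 to 12. Over all regions of the genome 15.9% were called in all 15 libraries and 39.5% in 1. Without the 3 libraries that stood apart, 44.6% of 175 regions of the set were called in all 12 others and 18.9% in 1, against 31.7% and 27.2% of all regions. Without DMSO 24 h replicate 3 alone, the 222814 regions became 178811 and the 197 of the set 176. Of these 176, 31.8% were called in all 14 others and 19.3% in 1, against 21.9% and 28.8% of all regions. The median width was 484 bp around these genes and 395 bp over all regions. A window of this kind held a median of 17.5 regions for the 10 genes (8 to 43) and of 16 for all protein-coding genes (quartiles 10 and 21), with a median of 5.5 and 3 regions called in every library. The share of a window's regions called in all 15 libraries had a median of 27.7% for the 10 genes (13.3% to 45.5%). For all protein-coding genes it was 21.4% (quartiles 10% and 33.3%). The windows differ in length with the gene, and CDK6, the longest gene of the set at 231.7 kb, had the most regions.

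Start sites illustrate how unevenly these genes were open, and promoter windows of CCND3, CDK6, CDK4 and CDKN1A are shown because the lists separated alternative starts of one gene (CCND3, CDK6), because the start ranked high in every list (CDK4) or because the treatment results concern the gene (CDK6, CDKN1A). RefSeq windows on GRCh38.p14 (250 bases before to 50 after a start) were found for 6 of the 10 genes, as 9 windows. CCND1, CCND2, CCNE2 and CDKN1C were not among them. Each is written 5′ to 3′ on the strand of the gene, with matches to the searched motifs in capitals.

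CCND3 (chr6:42048639-42048938, minus strand, peak in 14 of 15 libraries): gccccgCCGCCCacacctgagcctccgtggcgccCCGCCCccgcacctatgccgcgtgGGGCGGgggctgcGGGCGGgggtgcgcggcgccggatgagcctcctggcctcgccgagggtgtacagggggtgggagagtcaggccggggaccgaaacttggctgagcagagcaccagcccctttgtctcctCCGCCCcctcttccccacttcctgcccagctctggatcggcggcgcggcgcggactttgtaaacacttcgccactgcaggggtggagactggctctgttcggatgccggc
CCND3 (chr6:41941759-41942058, minus strand, peak in 15 of 15 libraries): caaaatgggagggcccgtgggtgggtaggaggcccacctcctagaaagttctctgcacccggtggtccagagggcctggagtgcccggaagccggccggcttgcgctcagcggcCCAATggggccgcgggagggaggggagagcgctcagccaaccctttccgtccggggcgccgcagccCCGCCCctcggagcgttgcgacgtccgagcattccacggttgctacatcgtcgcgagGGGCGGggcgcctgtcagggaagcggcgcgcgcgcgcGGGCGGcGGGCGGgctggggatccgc
CCND3 (chr6:41939156-41939455, minus strand, peak in 0 of 15 libraries): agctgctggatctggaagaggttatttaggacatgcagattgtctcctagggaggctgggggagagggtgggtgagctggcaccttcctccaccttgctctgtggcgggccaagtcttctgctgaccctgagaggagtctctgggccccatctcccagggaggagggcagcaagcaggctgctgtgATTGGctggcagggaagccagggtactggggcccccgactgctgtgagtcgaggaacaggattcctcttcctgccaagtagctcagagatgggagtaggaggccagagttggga
CDK6 (chr7:92836524-92836823, minus strand, peak in 1 of 15 libraries): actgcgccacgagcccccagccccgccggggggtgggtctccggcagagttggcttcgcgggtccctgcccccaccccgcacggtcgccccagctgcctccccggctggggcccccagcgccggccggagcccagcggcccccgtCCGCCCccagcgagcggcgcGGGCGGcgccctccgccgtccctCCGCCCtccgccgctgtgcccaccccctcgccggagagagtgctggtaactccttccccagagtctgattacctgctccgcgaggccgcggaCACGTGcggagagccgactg
CDK6 (chr7:92833910-92834209, minus strand, peak in 15 of 15 libraries): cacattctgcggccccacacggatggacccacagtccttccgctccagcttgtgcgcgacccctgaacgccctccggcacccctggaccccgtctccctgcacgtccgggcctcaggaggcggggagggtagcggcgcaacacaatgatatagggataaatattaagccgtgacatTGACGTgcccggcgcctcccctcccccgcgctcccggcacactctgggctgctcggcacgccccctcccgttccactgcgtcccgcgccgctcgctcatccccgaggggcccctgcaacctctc
CDK4 (chr12:57752261-57752560, minus strand, peak in 15 of 15 libraries): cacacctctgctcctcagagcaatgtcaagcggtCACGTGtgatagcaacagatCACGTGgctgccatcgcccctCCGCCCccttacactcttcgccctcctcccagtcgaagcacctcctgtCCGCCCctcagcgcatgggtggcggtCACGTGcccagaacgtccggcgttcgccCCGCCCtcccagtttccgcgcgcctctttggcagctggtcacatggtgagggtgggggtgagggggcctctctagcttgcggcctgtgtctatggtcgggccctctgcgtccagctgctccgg
CDKN1A (chr6:36678464-36678763, plus strand, peak in 15 of 15 libraries): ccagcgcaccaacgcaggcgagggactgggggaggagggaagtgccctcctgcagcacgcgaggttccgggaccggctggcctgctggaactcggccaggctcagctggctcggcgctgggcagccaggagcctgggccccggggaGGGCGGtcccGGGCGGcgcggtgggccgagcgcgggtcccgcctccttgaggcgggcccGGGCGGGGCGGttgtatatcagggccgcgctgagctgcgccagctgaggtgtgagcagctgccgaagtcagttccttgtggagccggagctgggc

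The capitals mark, on either strand, the Sp1 box GGGCGG, the CCAAT box CCAAT, the E-box CACGTG and the core of the cAMP response element, TGACGT. The Sp1 box stood in 7 of the 9 windows of the set and in 45.0% of 35116 RefSeq promoter windows, and the CCAAT box stood in 3 of 9 (34.6% of all). The E-box stood in 2 of 9 (7.26% of all), 1 of CDK6 and that of CDK4, which held 3 copies. TGACGT stood in 1 of 9 (7.98% of all), the CDK6 window called in every library. None of the 9 windows held the TCF/LEF letters CTTTGAT (2.62% of all) or CTTTGAA (4.43%), the E2F letters TTTCGCG (1.32%), TTTGGCG (1.92%) or TTTCCCG (4.29%), the CHR letters TTTGAA (15.2%, contained in CTTTGAA) or the TATA letters TATAAA (11.5%). A match is a run of letters and not a measured site, and a window without one says nothing of the factor.

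Among the D cyclins, CCND1 (gene 595, chromosome 11, 69641156 to 69654474) had 23 regions, of which 6 were called in all 15 libraries, 11 in 3 to 12 and 4 in 1. The region over its lower-coordinate end (69640942 to 69641502) had a call in all 8 DMSO libraries and in 5 of 7 with Lgk974, missing in Lgk974 24 h replicate 3 and Lgk974 48 h replicate 3, which have the shortest lists. Its peaks were of middling strength, ranking between 31.1% and 70.0% of the way down their lists when peaks are ordered by the authors' −log10 q, 0% being the strongest. The region over the other end (69654382 to 69655617) was called in all 15 and ranked between 1.12% and 11.4%. The higher-coordinate end ranked above the lower one in each of the 13 libraries that had both. Its widest region called in all libraries (69674356 to 69675784) overlapped an end of LTO1, 19882 bp beyond CCND1.

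CCND2 (gene 894, chromosome 12, 4273762 to 4305353) was the sparsest neighbourhood, with 8 regions, and no library had a peak within 1 kb of either of its ends. Inside the gene lay 2 regions, with calls in 7 DMSO and 5 Lgk974 libraries (4276764 to 4277409) and in 4 and 2 (4287730 to 4288213). Of its 2 regions called in all libraries, the widest (4320478 to 4321800) lay over an end of the neighbouring gene TIGAR and ranked between 2.52% and 29.7%.

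CCND3 (gene 896, chromosome 6, 41934933 to 42050035) had 25 regions, 14 of them inside the gene and 8 called in all libraries. Both of its 5′ starts with a GGGCGG-bearing window were open: the upstream one (42048226 to 42049096) in 14 libraries, missing only in Lgk974 24 h replicate 3, and the internal one (41940329 to 41942368) in all 15. The internal start ranked between 8.06% and 28.7% and the upstream one between 20.9% and 76.0%, the internal one higher in each of the 14 libraries that had both. The third start, whose window is printed above without a GGGCGG match, lay in no peak of any library.

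For the kinases, CDK4 (gene 1019, chromosome 12, 57747727 to 57752310) lay in one of the most constantly open neighbourhoods of the set, with 7 of 16 regions called in all 15 libraries. Of the 16, only the region over its start had an end of CDK4 as the nearest protein-coding gene end. That region (57751720 to 57752868) ranked between 1.72% and 11.9% in every list, with a deposited fold over background of 4.72 to 8.14. These fold values are the authors' own for each peak and describe it within its list only. The widest region of the window (57764597 to 57766862, 2266 bp) lay 216 bp from an end of CYP27B1 and was also called in all 15.

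CDK6 (gene 1021, chromosome 7, 92604921 to 92836573) had 43 regions, 32 of them inside the gene, 8 called in all libraries and 14 in 1. Of its starts, the one at the very end of the gene was called only in DMSO 24 h replicate 3 (92836430 to 92836754), and the other RefSeq start, inside the gene (92832836 to 92834293) in all 15, with ranks of 6.81% to 39.2%. Between them a region was called in 13 libraries (92835281 to 92836075), weakly, at ranks of 38.5% to 83.2%. Whether these regions are exonic or intronic was not analysed here.

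For the E cyclins, 16.7% of the regions of CCNE1 and 13.3% of those of CCNE2 were called in all libraries, near the 15.9% over all regions. CCNE1 (gene 898, chromosome 19, 29811991 to 29824312) had 18 regions, with 3 called in all libraries and 8 in 1. Its start (29811219 to 29812243) was called in 14 libraries, missing in Lgk974 24 h replicate 3, at ranks of 20.2% to 66.9%. Its widest constant region (29844330 to 29845940) lay 20018 bp beyond the gene with no closer protein-coding gene end and ranked higher, at 9.47% to 45.0%.

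CCNE2 (gene 9134, chromosome 8, 94880224 to 94896693) had 15 regions, with 2 called in all libraries and 7 in 1. The region at its higher-coordinate end (94894964 to 94896386) was called in all 15 at ranks of 6.18% to 16.5%, and also covers an end of NDUFAF6, so the genes cannot be told apart there.

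The starts of CDKN1A and CDKN1B lay in regions called in every library, as did an end of CDKN1C, for which no start was given. The share of all protein-coding genes with such a region is not given here, so whether this is high was not tested. The CDKN1A start (gene 1026, chromosome 6, 36676463 to 36687332) lay in a region of 1383 bp (36678342 to 36679724) that ranked between 14.8% and 58.6%. The CDKN1B start (gene 1027, chromosome 12, 12717368 to 12722369) lay in a region (12716794 to 12717762) that ranked between 9.66% and 37.1% and also covers an end of GPR19. The CDKN1C end (gene 1028, chromosome 11, 2883218 to 2885775) lay in a region (2884967 to 2886051) that ranked between 14.5% and 55.3%. CDKN1B and CDKN1C had 5 of 11 and 8 of 21 regions called in all libraries, and CDKN1A 5 of 17. The widest constant regions of CDKN1B (12724748 to 12726209, over an end of APOLD1) and CDKN1C (2902007 to 2904694, 2316 bp from an end of SLC67A1) lay beyond the genes themselves.

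**Figure D1:**
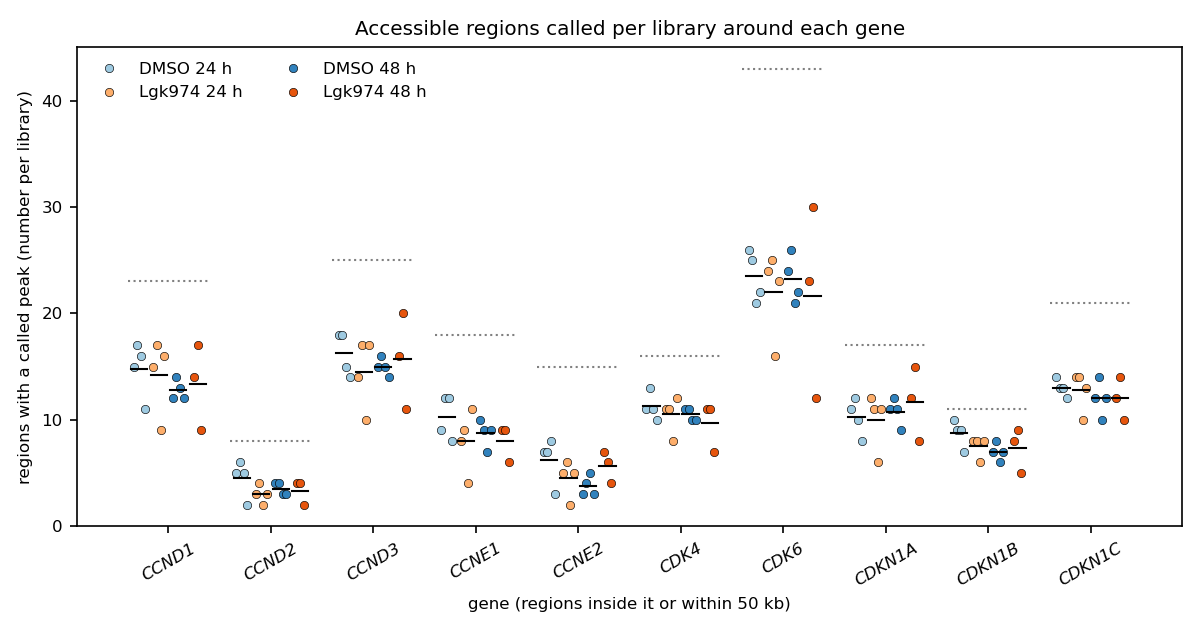
Number of regions with a called peak in each library (vertical axis) around each of the 10 genes (horizontal axis), with 1 point per library coloured by group, a black bar for the group mean and a dotted line for all regions of the window. The points of DMSO and Lgk974 overlap for every gene.

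The number of open regions per library overlapped between DMSO and Lgk974 for each of the 10 genes. CCND1 had 11 to 17 called regions (median 13.5) in the 8 DMSO libraries and 9 to 17 (median 15) in the 7 Lgk974 libraries. CDK6 had 21 to 26 (median 23) with DMSO and 12 to 30 (median 23) with Lgk974, the 12 and the 30 both at 48 h. CDKN1A had 8 to 12 (median 11) with DMSO and 6 to 15 (median 11) with Lgk974. The range was wider with Lgk974 for all 3, and the low ends, 9, 12 and 6, came from replicates 3 of Lgk974, whose lists were short.

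To take list length into account, the detection excess of a gene was computed in each library: the mean over its regions of called minus the share called in that library among all regions called in as many libraries, in percentage points. Over 18740 protein-coding genes, 12.1% had an unadjusted p of under 0.05 for Lgk974 against DMSO and none passed Benjamini-Hochberg adjustment (smallest adjusted p = 0.142, two-sided exact permutation within time). Of the 10 genes of the set, 0 had an unadjusted p of under 0.05. CCND2 lay at one extreme, with an excess of 4.59 ± 15.4 (SD, n = 8) with DMSO and -5.24 ± 6.15 (SD, n = 7) with Lgk974, a difference of -9.79 (exact permutation p = 0.127, adjusted p = 0.569). CDKN1A lay at the other, with -2.70 ± 6.997 (SD, n = 8) and 3.08 ± 9.12 (SD, n = 7), a difference of 6.58 (exact permutation p = 0.102, adjusted p = 0.529). The values depended on the setting: without DMSO 24 h replicate 3 the CCND2 difference was -15.6, and the CDKN1A difference was 1.14 where peaks had to cover 50% of a region, 3.48 with lists of equal length, 22.8 with a window of 10 kb and 4.41 without Lgk974 48 h replicate 2. Without all 3 libraries that stood apart they were -15.4 and 10.3. In CCND2, 7 of 7 Lgk974 libraries lay below the DMSO mean, and in CDKN1A 5 of 7 lay above it. The DMSO values of CCND2 ran from -16.8 (24 h replicate 4) to 33.5 (24 h replicate 2), a range that holds every Lgk974 value. Only 6 regions of CCND2 entered, 3 of them called in 1 library each. The count of genes was 1 in place of 0 where DMSO 24 h replicate 1 or 4, or Lgk974 24 h replicate 3 or 4, was left out.

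The comparison of Lgk974 with DMSO asks whether single regions near these genes open or close when WNT secretion is blocked. Around CCND1, CDK6 and CDKN1A, 1 region each was called almost wholly in one treatment, with DMSO near cyclin D1 and with Lgk974 near CDK6 and p21, but no region of the set or of the genome passed adjustment. Over both times the share of libraries with a call was compared region by region, with treatment labels permuted within time (2450 assignments, two-sided exact test) and adjustment over all 60356 regions called in 3 to 12 libraries. Of the 55 such regions in the set, 3 were higher and 1 was lower with Lgk974 at an unadjusted p of under 0.05, and the background was 2.96% higher and 3.08% lower over all regions tested. Together the 4 made 7.27% of the set against 6.03% over all regions, a share near the background. The lower region, near CCND1, was known from earlier results when the set was chosen. Its p and its part in these counts are therefore not free of that choice. The smallest adjusted p in the set was 0.418. The median difference in share was 0.04 in the set, with 28 regions positive and 27 negative, and -0.04 over all regions.

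The CCND1 region (chromosome 11, 69638047 to 69638639) lay 2517 bp before the lower-coordinate end of the gene, outside any gene. At 24 h it was called in 4 of 4 libraries with DMSO and 1 of 4 with Lgk974, and at 48 h in 4 of 4 and 0 of 3, a difference in share of -0.875 (exact permutation p = 0.00204, adjusted p = 0.418). In the DMSO libraries its peaks ranked between 47.7% and 75.5%, and the single Lgk974 call, in 24 h replicate 4, ranked at 98.4%, near the bottom of that list. Flanking regions at 69636349 to 69636981 and at 69638857 to 69639530 were called in all 15 libraries. Inside CCND1, a region at 69643173 to 69643626 had the opposite tilt, with 4 of 8 DMSO and 7 of 7 Lgk974 libraries (exact permutation p = 0.0918). Of the 11 tested regions of cyclin D1, 7 had a higher share of calls with Lgk974 and 4 a lower one.

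The CDK6 region (chromosome 7, 92664166 to 92664811) lay inside the gene, 59245 bp from its lower-coordinate end. At 24 h it was called in 1 of 4 libraries with DMSO and 4 of 4 with Lgk974, and at 48 h in 0 of 4 and 3 of 3, a difference of 0.875 (exact permutation p = 0.00204, adjusted p = 0.418). The single DMSO call came from 24 h replicate 3, which stood apart with the longest list. Its peaks had deposited folds of 3.27 to 7.69 and ranks of 34.0% to 83.4%, the strongest in Lgk974 48 h replicate 2. No Lgk974 library lacked it.

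The CDKN1A region (chromosome 6, 36671663 to 36672277) lay 4186 bp before the lower-coordinate end of the gene and outside any gene. It was called in no DMSO library at either time and in 3 of 4 Lgk974 libraries at 24 h and 3 of 3 at 48 h, a difference of 0.875 (exact permutation p = 0.00204, adjusted p = 0.418). The Lgk974 library without it was 24 h replicate 3, which had the shortest list. Its ranks ran from 40.8% to 92.0%, so most of these peaks were weak. The start of CDKN1A and a region 8921 bp before the gene (36667034 to 36667542) were called in all 15 libraries.

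The CCNE2 region (chromosome 8, 94916126 to 94916561) lay 19433 bp beyond the gene, inside NDUFAF6 and closest to an end of TP53INP1 at 9411 bp. At 24 h it was called in 1 of 4 libraries with DMSO and 3 of 4 with Lgk974, and at 48 h in 0 of 4 and 2 of 3, a difference of 0.583 (exact permutation p = 0.0388, adjusted p = 0.741). The groups overlapped in calling, and the Lgk974 libraries without it were replicate 3 of each time.

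Without the 3 libraries that stood apart, the CDK6 and CDKN1A regions each had calls in 0 of 7 libraries with DMSO and 5 of 5 with Lgk974, the CCND1 region in 7 of 7 and 1 of 5, and the CCNE2 region in 1 of 7 and 5 of 5. When each list was shortened to its 53610 strongest peaks, the CDK6 region still had calls in 0 libraries with DMSO and 6 with Lgk974 (exact permutation, adjusted p = 0.0839), whereas the CCND1 region had them in 2 and 0, the CDKN1A region in 0 and 2 and the CCNE2 region in 0 and 3. In those lists 14.4% of all tested regions had an unadjusted p of under 0.05, against 8.11% of the set. Those of the set included a region near CDKN1C (2888358 to 2888755, 7 DMSO and 1 Lgk974 libraries, exact permutation p = 0.00857). A further one lay near CCNE2 (94914235 to 94914750, 2 and 6 libraries, exact permutation p = 0.0224). In the full lists this CCNE2 region was called in all 15 libraries, and the CDKN1C region in 8 DMSO and 5 Lgk974 libraries.

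**Figure D2:**
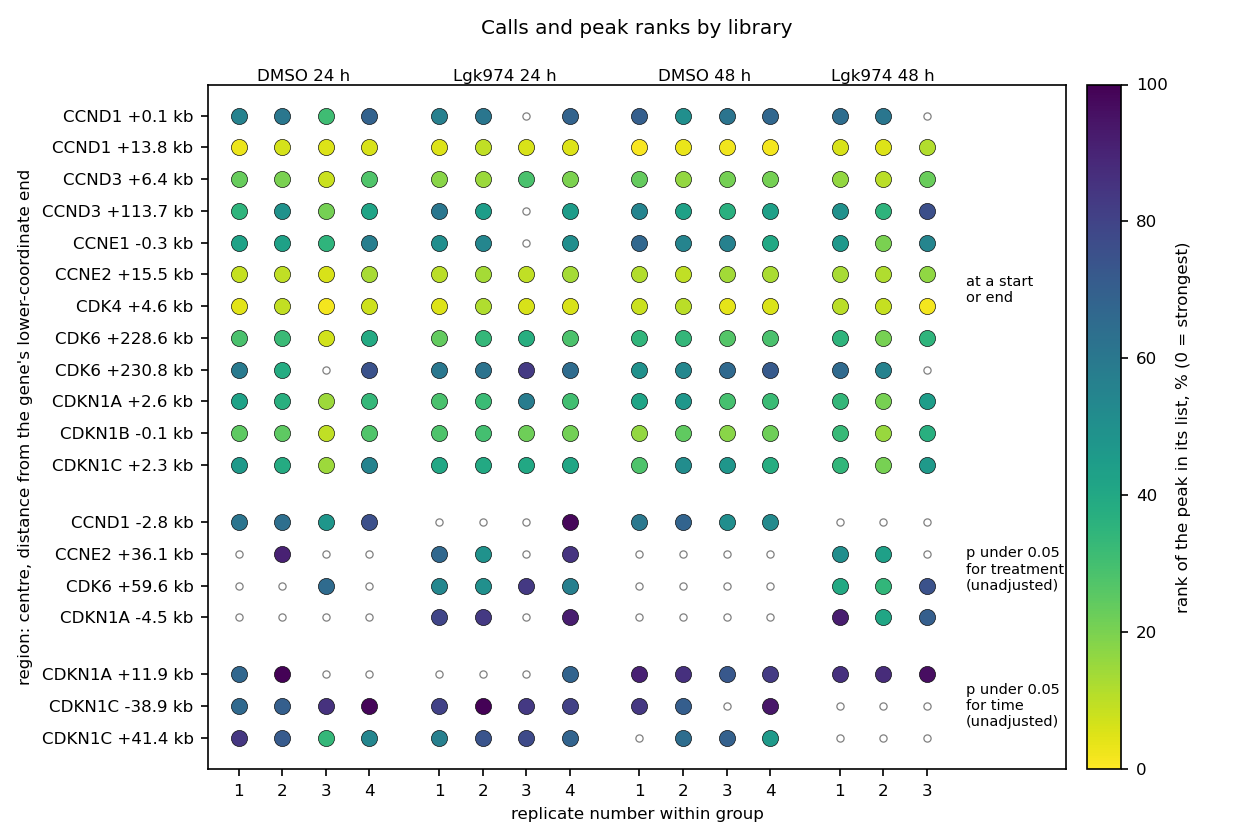
Calls in each of the 15 libraries (horizontal axis, replicate numbers by group) for regions at a start or end of the genes called in more than 2 libraries and for those with an unadjusted p of under 0.05 for treatment or time (vertical axis, distance of the region's centre from the gene's lower-coordinate end). Filled points are called regions coloured by the rank of their strongest peak in its list, and small open points are regions without a call. The regions shown at a start or end are filled in 13 to 15 libraries, and those called in 1 or 2, at CCNE1, CCNE2 and CDK6, are not drawn. Of the regions picked for treatment, those of CDK6 and CDKN1A are filled almost wholly with Lgk974 and that of CCND1 with DMSO.

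**Figure D3:**
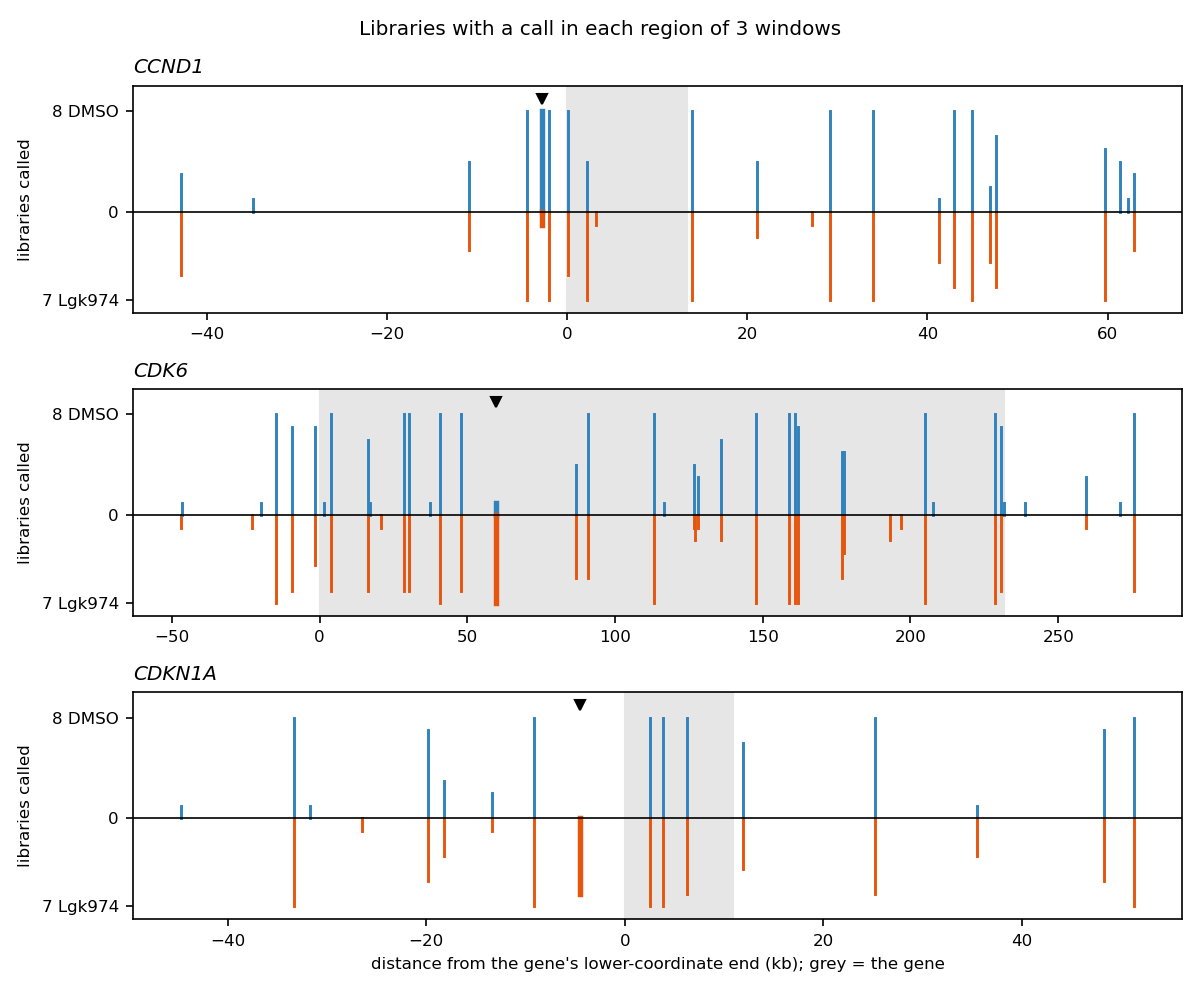
Number of libraries with a call in each region of the CCND1, CDK6 and CDKN1A windows, DMSO above the line (of 8) and Lgk974 below it (of 7), against distance from the gene's lower-coordinate end in kb, with the gene in grey. Triangles mark the regions with an unadjusted p of under 0.05 for treatment. The bar below the CCND1 triangle stands almost wholly above the line, and those of CDK6 and CDKN1A almost wholly below it.

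**Figure D4:**
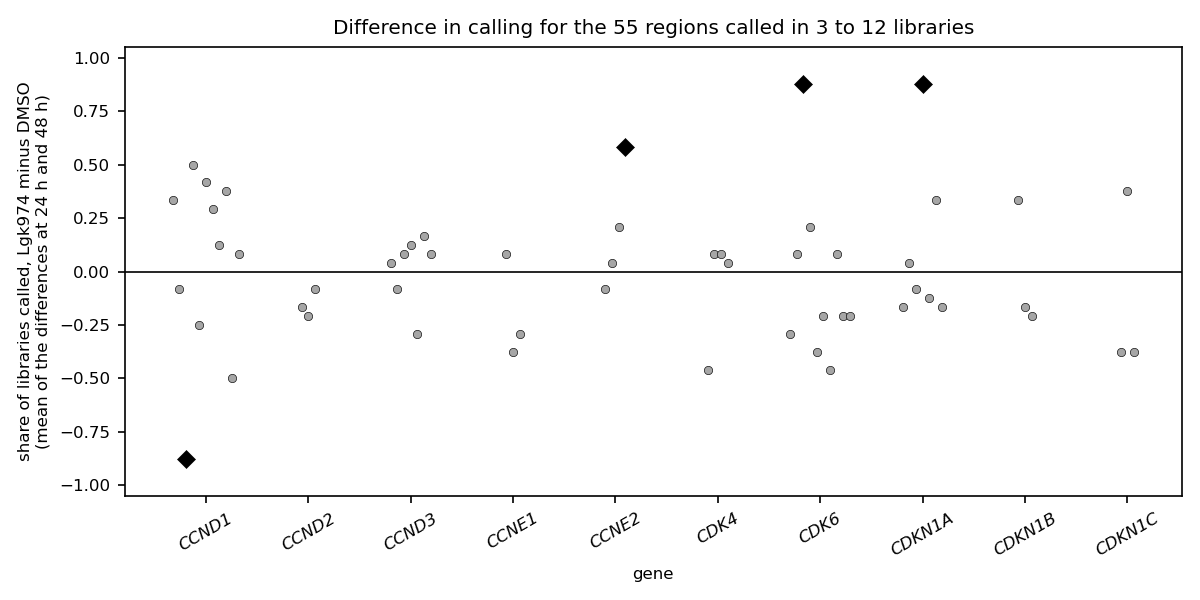
Difference in the share of libraries called (Lgk974 minus DMSO, mean of both times) for each of the 55 regions called in 3 to 12 libraries, 1 point per region, by gene. Black diamonds have an unadjusted p of under 0.05. The 4 diamonds stand at -0.875 for CCND1, 0.583 for CCNE2 and 0.875 for CDK6 and CDKN1A, and the other 51 points scatter on both sides of 0.

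The smallest p that 2450 assignments allow is 0.000408, and 493 regions at that value would have been needed for one to pass adjustment. At the p of the CCND1, CDK6 and CDKN1A regions, 295 regions of the genome lay at or below it and 2464 would have been needed, so none with that p could pass.

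Identical calls in all 15 libraries were found elsewhere for each of the 4 regions, as a description of how common each pattern was. The CCND1 pattern was shared by 10 other regions, the nearest to a protein-coding gene end being those of NSMCE3, ACSL5 and HIGD2AP2, and the CDK6 pattern by 4, the nearest being LOC128966684, RAB37 and STRA6. The CDKN1A pattern was shared by 59 regions (CBFA2T3, MAP3K7CL and DBNDD2) and the CCNE2 pattern by 64 (KCNK5, VWA3B and TLN1). The patterns of CCND1 and CDK6 were the rarer.

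At single times the design gives a smallest p of 0.0286. At 24 h, 0 of 48 regions of the set had an unadjusted p of under 0.05 in the exact permutation test (0.474% of all regions tested) and 0 passed adjustment. At 48 h, 3 of 44 did (2.14% of all regions tested), 2 higher and 1 lower with Lgk974 (0.811% and 1.33% of all regions), and 0 passed adjustment (exact permutation, smallest adjusted p = 0.737): those of CCND1, called in 4 of 4 libraries with DMSO and 0 of 3 with Lgk974, and of CDK6 and CDKN1A, each in 0 of 4 and 3 of 3. The test of whether the treatment difference itself changed between 24 h and 48 h gave an unadjusted p of under 0.05 for 0 of 55 regions (1.36% of all regions) and 0 adjusted. Without DMSO 24 h replicate 3 or Lgk974 24 h replicate 3 the 24 h count was 1, and without Lgk974 24 h replicate 4 it was 2. Leaving out any 1 library of 48 h took the 48 h count to 0, since the smallest p possible is then above 0.05. The 48 h count includes the CCND1 region, which was known when the set was chosen.

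The comparison of 48 h with 24 h asks how the neighbourhoods differ with time in culture, with time labels permuted within treatment. It gave 0 regions past adjustment and 3 of 55 with an unadjusted p of under 0.05 (5.45%, against 1.75% of all regions tested), 1 higher at 48 h near CDKN1A and 2 lower near CDKN1C (1.25% and 0.504% of all regions). The CDKN1A region (chromosome 6, 36687888 to 36688914) lay 556 bp beyond the gene and was called in 3 of 8 libraries at 24 h and 7 of 7 at 48 h, 2 of 4 and 4 of 4 with DMSO and 1 of 4 and 3 of 3 with Lgk974 (difference 0.625, exact permutation p = 0.0306). The CDKN1C regions lay 38628 bp before the gene, inside KCNQ1 (2843988 to 2844590), and 38591 bp beyond it, inside SLC67A1 (2924366 to 2924878). Each was called in 8 of 8 libraries at 24 h, in 3 of 4 DMSO libraries at 48 h and in 0 of 3 Lgk974 libraries at 48 h (difference -0.625, exact permutation p = 0.0143). Ranks of these peaks ran from 33.4% to 99.4%, with medians of 86.2% for the CDKN1A region and 83.2% and 68.4% for those of CDKN1C, in the weaker part of the lists. The count of 3 fell to 0 without any of Lgk974 24 h replicates 1, 2 and 3, to 1 without Lgk974 24 h replicate 4, and to 0 without the 3 libraries that stood apart.

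Gene ends were also tested, as a peak within 1 kb of either outer end of the RefSeq span. Of the 10 genes, 6 had such a peak in all 15 libraries, CCNE1 and CDK6 had one in 14 and CCND2 in none. The share of all protein-coding genes with such a peak is not given here, so whether these counts are high or low was not tested. For CDKN1A it was the region 556 bp beyond the far end, called in 6 DMSO and 4 Lgk974 libraries, while its start, farther inside the span, was called in all 15. Only CDKN1A could be tested, and it did not reach an unadjusted p of under 0.05, against 4.44% of the 1982 gene ends tested, and 0 passed adjustment.

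The wider G1/S machinery, 44 genes that include the retinoblastoma and E2F families, CDK2, the INK4 inhibitors and the ubiquitin ligases of cyclins and inhibitors, had an end called in all 15 libraries for 40 genes and in none for CRYAB, a cofactor of cyclin D1 turnover. E2F2 and TFDP1, partners in E2F transcription, each had a call at an end in 12 libraries (7 of 8 with DMSO, 5 of 7 with Lgk974), and MYB in 14. These counts of ends are likewise given without the share over all protein-coding genes. Of 188 tested regions near these genes, 2 were higher and 3 were lower with Lgk974 at an unadjusted p of under 0.05 (2.66%, against 6.03% of all regions) and 0 passed adjustment (exact permutation, smallest adjusted p = 0.543). The higher regions were near CKS1B, a subunit of the SKP2 ligase that marks p27 for destruction (0 of 8 DMSO and 5 of 7 Lgk974 libraries, exact permutation p = 0.00612), and inside TFDP2 (0 and 4, exact permutation p = 0.0306). The lower ones lay near the licensing factor CDT1 (8 and 3, exact permutation p = 0.0143) and near LIN9 and LIN54, subunits of the complex that binds the CHR element (6 and 1 each, exact permutation p = 0.0306). The CKS1B region was closest to DCST2, the CDT1 region to PIEZO1 and the LIN54 region to THAP9.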

How the data were processed

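ATAC-seq was run on 15 HPAF-II libraries, and the growth protocol also describes KATO III cells. Per the submitters' processing notes, the build was hg38 and the tools included Trimmomatic, Bowtie2 and MACS2. Their versions, settings and any shift of reads for the transposase were not stated in the sources used here. Such steps decide which weak peaks enter a list. The authors deposited 1 peak list per library, called per library. The deposited columns for each peak are a score, a fold (ratio) over background, −log10 of p and of q, and a summit offset, all the authors' own. Here they served to rank, filter or describe peaks within 1 list. No read counts were used, so depth is unknown and no count model was fitted.

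Peaks were merged with numpy 2.4.6 and pandas 2.3.3 in Python 3.11.15, figures drawn with matplotlib 3.10.9. Only chromosomes 1 to 22 and X were used, which dropped 1138 of 1413185 peaks, and 1 damaged line was read as chromosome 1. A region was called in a library where a peak overlapped it by at least 1 bp. Gene spans came from RefSeq on GRCh38.p14, the assembly of hg38, without exons, and all tests were exact permutations with Benjamini-Hochberg adjustment at 0.05 over all regions or genes tested. The scripts were tested on simulated data. Tested regions were called in 3 to 12 libraries (within one time, in at least 2 and at most all but 2), and detection excess needed at least 3 regions per gene.

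The members and lists were chosen with earlier results of these data known, among them the CCND1 region described for treatment. Regions named were those within 1 kb of an annotated start (or of either end where no start is given), those with an unadjusted p of under 0.05 for treatment, the widest called in all 15 libraries, and, for each treatment region, up to 3 genes nearest to regions with the same calls. The regions named for time, the flanking regions and those inside CCND1 and CCND2 were chosen after their values were seen. One immune marker is not reported here.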

Additional observations from a re-analysis of the deposited data

Results flagged for a closer look

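In 30 groups of 4 libraries (10 genes in each of the 3 groups with 4 libraries), the number of regions called was screened. Each library was compared with the other 3 of its group, and 2 values were flagged by their gap over range. Lgk974 24 h replicate 3 had 6 called regions around CDKN1A, against 11 to 12 in the other 3 libraries of its group (gap over range 0.833, above Dixon's critical value). The same library had 6 called regions around CDKN1B, against 8 in each of the others (gap over range 1, which any other value gives when the rest are tied). Chance flags about 1 in 20 groups of continuous values, a rate that need not hold for small tied counts. That library has the shortest list, 53610 peaks, and its detection excess, which takes list length into account, was -8.91 around CDKN1A (-3.39 to 7.64 in the other 3) and -0.0416 around CDKN1B (-0.85 to 2.13).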

How the results depend on the processing

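No region passed adjustment for treatment, time or the interaction, and no gene window for treatment, under the alternatives run for each. With regions called in 2 to 13 libraries treatment alone was run, and with the replicate block treatment and time. The block allows 128 assignments (exact permutation, smallest adjusted p = 1). The CCND1, CDK6, CDKN1A and CCNE2 regions kept their direction under all of them, with differences of -1 to -0.25, 0.833 to 1, 0.333 to 1 and 0.458 to 0.833. These regions were named for their differences in the same libraries, so a kept direction is no separate evidence. The unadjusted p of the CCNE2 region ran from 0.0133 to 0.125. Counts at an unadjusted p of under 0.05 moved as follows. With lists of equal length, the set had 1 region for time (4.50% of all regions) and 1 gene (CCNE2) reached it for detection excess. With a deposited −log10 q of at least 5, 1 region reached it at 24 h (0.481%). Where peaks had to cover 50% of a region, 4 of 73 were higher and 3 lower with Lgk974 (2.97% and 2.98% of all regions). The counts for time, the interaction and 24 h, of 73 or fewer tested, were 1 each (1.55%, 1.25% and 0.383%). Without the 3 libraries that stood apart the counts were 5 of 40 higher and 1 lower with Lgk974 (6.50% and 1.49% of all regions), 0 for time (1.401%) and 0 at 48 h. With a window of 10 kb, 2 genes (CDK4 lower and CDKN1A higher) reached it for detection excess. The cause was not tested, except that at 48 h fewer libraries raise the smallest p. Leaving out each library in turn gave 2 to 3 higher, 1 to 1 lower, 0 to 4 for time, 0 to 2 at 24 h, 0 to 3 at 48 h, 0 to 0 for the interaction and 0 to 1 genes for detection excess.

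With the replicate block, labels were swapped only within libraries of the same number. For treatment, DMSO 48 h replicate 4 had no partner and did not enter the difference. At an unadjusted p of under 0.05 the set then had 2 regions higher and 1 lower with Lgk974 (5.45%, against 0.562% of all regions). These were the CDK6, CDKN1A and CCND1 regions, already named for their differences in the same libraries. For time the set had 0 regions (0.0530% of all regions). For detection excess 1 gene (CCND2) reached p of under 0.05. The labels do not say that a number marks a shared batch, and not every pair of same-numbered libraries correlated above 0.1 in its deviations: 5 of 7 treatment pairs did (-0.0321 to 0.146), including all 4 at 24 h, and 6 of 7 time pairs (-0.0254 to 0.260), including all 4 with DMSO. A library correlated best with its own number in 4 of 7 and 5 of 7, a hint from the data and not the design. Depth is a limit, since lists without read counts cannot separate a closed region from one below threshold.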
